A study of Mus musculus with 18 samples.

Results

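The loss of Cyrano was compared between 2 regions of the mouse brain. The comparison takes the change of each miRNA in mice without this long noncoding RNA, first in hippocampus and then in cerebellum, and asks by how much the 2 changes differ. It rests on 12 of the 18 small-RNA libraries of the series, those of the CyrKO and WT groups in both tissues; the other 6 carry a mutated miR-671 site in the circular RNA Cdr1as. The 4 groups were CyrKO hippocampus, WT hippocampus, CyrKO cerebellum and WT cerebellum, with 3 biological replicates in each according to the series design. CyrKO stands for Cyrano-/- mice and WT for wild-type mice. All were males of the C57BL/6J strain aged 1 month, and whole pieces of tissue were used, so that fewer cells of a type and less RNA per cell cannot be told apart. Libraries held 8591172 to 15305829 miRNA reads, and 1073 to 1174 of the 1841 listed miRNAs had a read. Log2 levels of replicates correlated across miRNAs at r = 0.988 to 0.997. Cyrano itself is not a small RNA and was not measured here, so the genotype labels could not be checked on the deleted RNA. For the tissue labels, 5 miRNAs known from forebrain and hippocampus summed to 28204 to 30580.5 CPM (counts scaled to a common total of miRNA reads) in hippocampus libraries and to 2662 to 2845 CPM in cerebellum libraries. The 4 known from cerebellum summed to 8.6 to 14.5 CPM in hippocampus libraries and to 1264 to 1556 CPM in cerebellum libraries. Both lists were chosen with earlier results of these data known, so these sums are not an independent check of the labels.

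A miRNA guide strand sits in an Argonaute protein and pairs with target RNAs mainly through its seed, bases 2 to 8. Most targets are repressed by this pairing, but a target that also pairs along the 3′ part of the guide can expose the miRNA to degradation, a process called target-directed miRNA degradation. Cyrano carries such a site for miR-7, a miRNA of neurons and neuroendocrine cells. In the same network miR-671-5p directs slicing of Cdr1as, which itself holds many seed sites for miR-7. Both strands of a hairpin are cut from the same precursor, and the one that is mostly discarded is called the passenger strand, so a change in the amount of precursor alone leaves their ratio as it is.

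The strands below are those that rose in CyrKO cerebellum, followed by the miR-7 site of Cyrano with the most paired bases. They are shown because the guide, the near-identical pairs and the site define what the reads can and cannot separate. Mature sequences are from RefSeq for GRCm38.p6, with the seed in capitals.
miR-7a-5p: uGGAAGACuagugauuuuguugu
miR-7b-5p: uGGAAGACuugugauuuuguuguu
miR-671-5p: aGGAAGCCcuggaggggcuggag
miR-409-3p: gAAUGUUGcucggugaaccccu
miR-411-3p: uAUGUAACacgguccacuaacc
miR-379-3p: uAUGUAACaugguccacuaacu
Cyrano site: ACAACAAAATCACcAatGTCTTCCA
The same miR-7a-5p is cut from the hairpins Mir7-1 (mature strand at chr13:58392841-58392863, minus strand) and Mir7-2 (chr7:78888295-78888317, plus strand), and miR-7b-5p from Mir7b (chr17:56243017-56243040, plus strand). The miR-7 guides share their seed and differ by A10U, counted from the 5′ end with the base of miR-7a-5p first, and miR-7b-5p is 1 base longer. miR-411-3p and miR-379-3p also share a seed and differ by C10U and C22U, with the base of miR-411-3p first. Reads within each of these near-identical pairs may therefore be split uncertainly. The Cyrano site lies at positions 2935 to 2959 of the 8300-base transcript 1700020I14Rik-202 (GENCODE vM21, GRCm38, gene at chr2:119594297-119607502, plus strand). Capitals in the site mark bases that pair with miR-7a-5p, which cover 22 of the 23 bases of the miRNA and leave 2 site bases looped out. Another match to the miR-7 seed, at positions 741 to 769 of the same transcript, pairs with 14 of the 23 bases and is not shown.

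Both miR-7 guides rose in both tissues, and the fold rise was far smaller in hippocampus. miR-7a-5p was at 26072, 24296 and 25304 CPM in CyrKO hippocampus, against 4659, 3752 and 4532 CPM in WT hippocampus. In cerebellum it was at 19644, 20987 and 19447 CPM in CyrKO, against 438, 542 and 507 CPM in WT. CyrKO libraries lay far above WT libraries in each tissue, and WT cerebellum stood alone as the group with the least miR-7. The log2 change was 2.52 (SE 0.11) in hippocampus and 5.34 (SE 0.13) in cerebellum, a difference of −2.82 (SE 0.15, edgeR quasi-likelihood adjusted p = 3.17e-09). miR-7b-5p, from a separate gene, was at 10284, 10198 and 9855 CPM in CyrKO hippocampus, against 1605, 1322 and 1530 CPM in WT hippocampus. Its levels in cerebellum were 7473, 8473 and 8460 CPM in CyrKO, against 145, 193 and 181 CPM in WT. The groups again did not overlap within a tissue. CyrKO was higher without overlap for 4.69% of all tested miRNAs in hippocampus and 3.35% in cerebellum. For miR-7b-5p the log2 changes of 2.74 (SE 0.12) in hippocampus and 5.56 (SE 0.13) in cerebellum differed by −2.81 (SE 0.16, edgeR adjusted p = 3.17e-09). Even the smallest group, miR-7b-5p in WT cerebellum, rested on 1631 to 2362 reads per library.

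**Figure D1:**
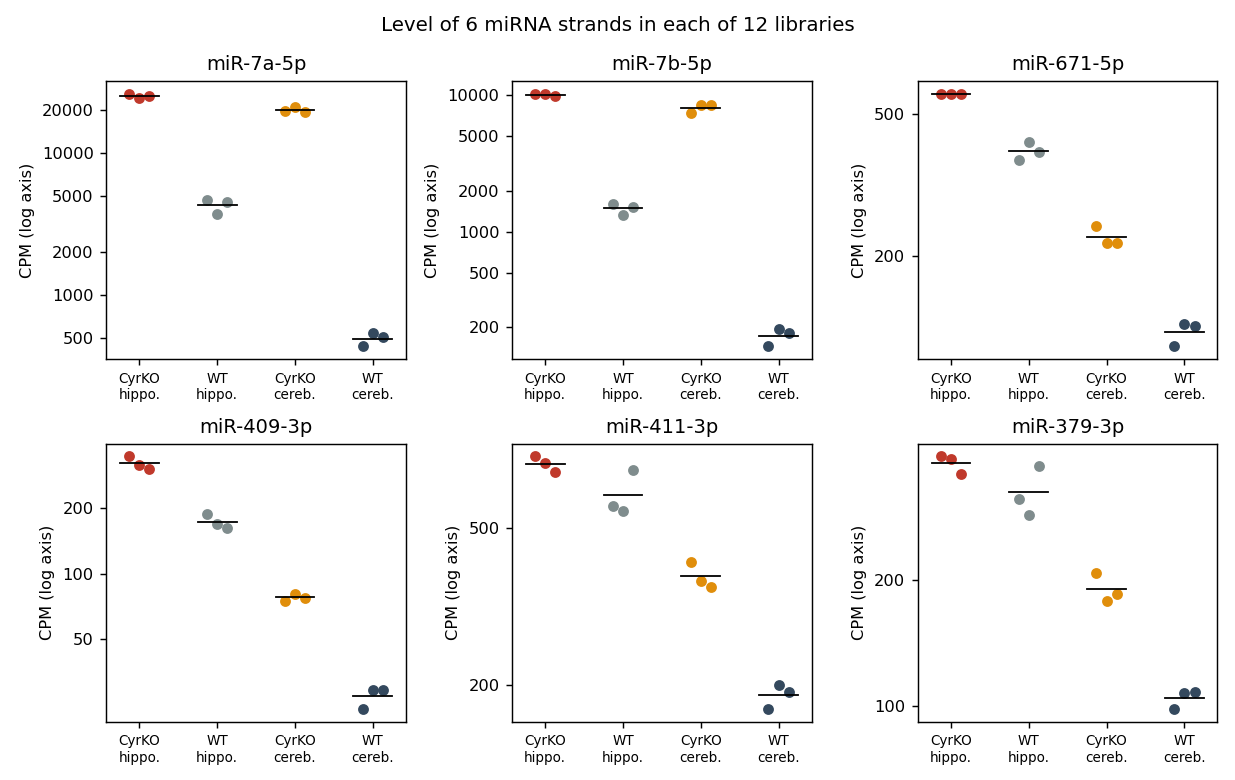
Level of 6 miRNA strands in each of the 12 libraries, in CPM on a log axis, by group; points are libraries and bars are means of 3. The miR-7 guides of both CyrKO groups lie close together while their WT groups lie far apart, and in CPM all 6 strands average higher in hippocampus than in cerebellum in both genotypes.

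The same difference can be read as a change in how the tissues compare with each other. On the scale of the edgeR fit, miR-7a-5p was higher in hippocampus than in cerebellum by 2.57 (log2) in WT mice, and in CyrKO mice the log2 ratio of hippocampus to cerebellum was −0.25 (SE 0.11). For miR-7b-5p these log2 ratios were −0.26 (SE 0.11) in CyrKO and 2.55 in WT. The sign of the ratio in CyrKO depends on the scaling between tissues, since the mean CPM of miR-7a-5p was 25224 in CyrKO hippocampus and 20026 in CyrKO cerebellum. The other strands kept a positive ratio of hippocampus to cerebellum in both genotypes, with 0.76 in CyrKO and 1.13 in WT for miR-671-5p and 1.46 in CyrKO and 2.10 in WT for miR-409-3p.

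Of the 746 miRNAs tested, 3 (0.402%) differed between tissues in their log2 change by edgeR, the 2 miR-7 guides and miR-411-3p, with a lower log2 change in hippocampus for all 3 (miR-411-3p did not pass in hippocampus itself). At an unadjusted p under 0.05 there were 35 (4.69%), 17 with a negative and 18 with a positive difference. The median difference over all tested miRNAs was 0.01, the quartiles were −0.16 and 0.18, and the median SE was 0.23. In the tissues themselves 4 miRNAs rose in CyrKO hippocampus (0.536% of those tested) and 6 in CyrKO cerebellum (0.804%), and 0 fell past the threshold in either by edgeR (with 10 lower in hippocampus and 13 in cerebellum at an unadjusted p under 0.05), while DESeq2 called 0 lower in hippocampus and 1 in cerebellum, miR-374c-5p (named after its values were seen), at −1.14 (SE 0.31, adjusted p = 0.0223). It also passed in edgeR with the replicate number as a block in cerebellum (−1.16, adjusted p = 0.0427), where the 6 that rose passed too. The 4 of hippocampus, miR-7a-5p, miR-7b-5p, miR-671-5p and miR-409-3p, were among the 6 of cerebellum, which also held miR-411-3p and miR-379-3p. The largest negative difference belonged to a miRNA that is nearly absent from cerebellum, miR-7080-5p, at −3.15 (SE 1.18, adjusted p = 0.942). It averaged 30.3 CPM in CyrKO hippocampus and 27.1 CPM in WT hippocampus, and 0.0733 CPM in CyrKO cerebellum, with no read in WT cerebellum.

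**Figure D2:**
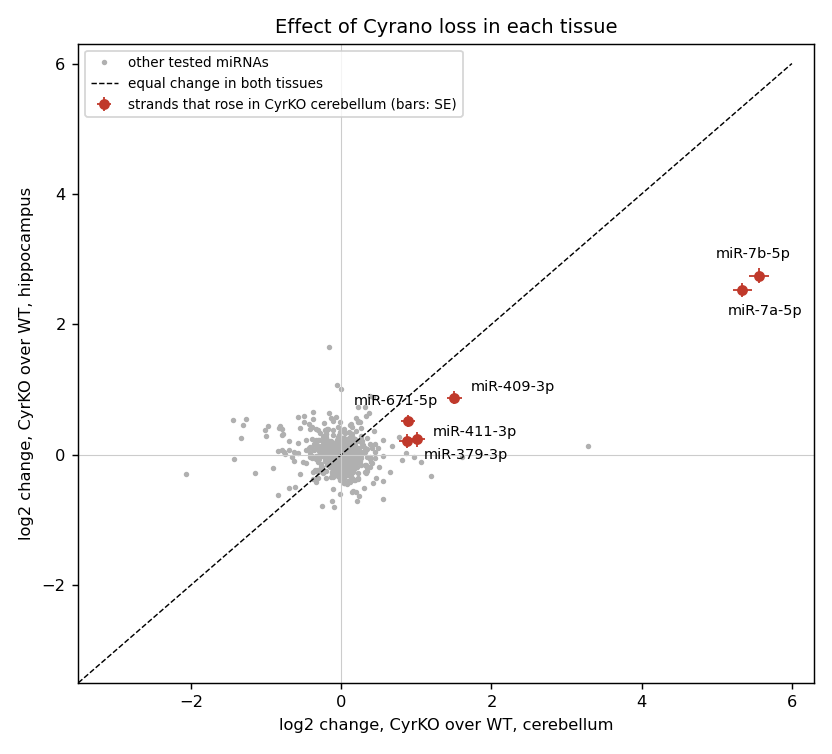
Log2 change, CyrKO over WT, in hippocampus (vertical axis) against cerebellum (horizontal axis) for the 746 tested miRNAs; red points are the 6 strands that rose in CyrKO cerebellum, with bars of 1 SE, and the dashed line marks equal changes. All 6 lie below the line, the miR-7 guides by 2.82 and 2.81, and the grey point near 3 on the horizontal axis is the scarce miR-7080-5p. The 6 were picked by their rise in cerebellum, 1 side of this difference, which by itself favours a place below the line.

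Counted as reads added rather than as a fold, the miR-7 guides gained 1.07 times as much in hippocampus as in cerebellum, and which tissue gained more depended on the scaling. Over the WT mean of its tissue, both guides together gained 30557, 28695 and 29359 CPM in the 3 CyrKO hippocampus libraries and 26449, 28791 and 27239 CPM in the 3 CyrKO cerebellum libraries. One cerebellum library lies within the hippocampus range, so the groups overlap. The mean gain in hippocampus was 29537 CPM (SE 657) and that in cerebellum was 27493 CPM (SE 689). The difference was 2044 CPM (SE 953, exact two-sided permutation p = 0.2, n = 3 each, smallest possible p 0.1). CPM are shares of the miRNA reads of a library and not molecules per cell. With TMM-scaled library totals, which set the bulk of miRNAs equal between libraries, the gain was 24032 scaled CPM in hippocampus and 33512 scaled CPM in cerebellum, and the difference of −9480 (SE 1591, exact permutation p = 0.1, n = 3 each) had the opposite sign. With totals that leave out the 10 most abundant miRNAs it was −2863 (SE 2176, exact permutation p = 0.3, n = 3 each), and with totals that leave out only the miR-7 guides it was 2489 (SE 1007, exact permutation p = 0.1, n = 3 each). The TMM factors were 1.18 to 1.25 in hippocampus and 0.79 to 0.86 in cerebellum, and the 10 most abundant miRNAs took 48.2% to 52.7% of the reads in hippocampus and 53.2% to 57.3% in cerebellum. On the log2 scale the difference for miR-7a-5p ran from −2.88 to −2.70 over 13 alternative settings, which include a fit with the reads of both guides summed. A scale factor shared by the libraries of a tissue cancels in a log2 change of CyrKO over WT. The scaling settings among the 13 could therefore move this value little.

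**Figure D3:**
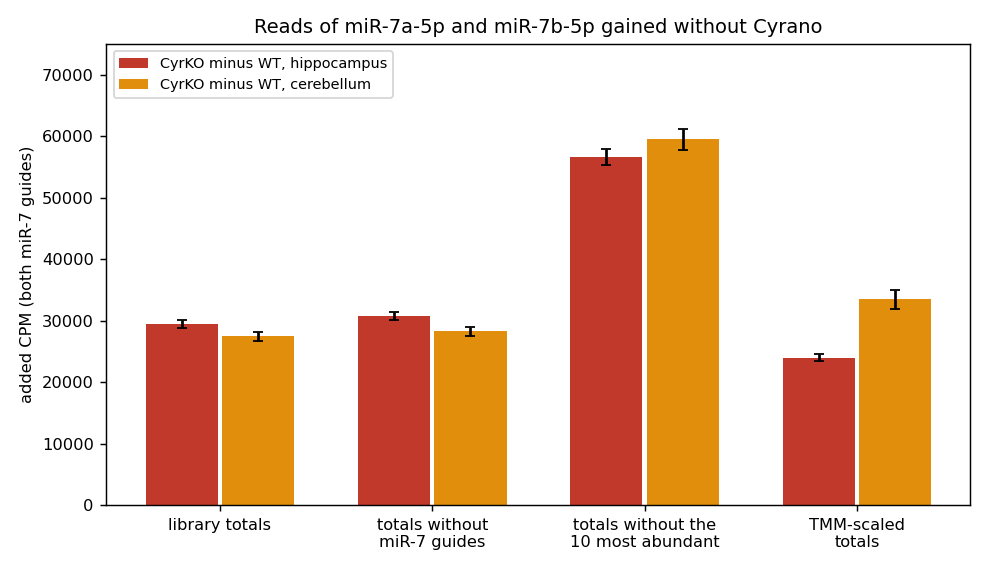
CPM gained by both miR-7 guides together, CyrKO minus WT, in hippocampus (red) and cerebellum (orange) under 4 ways of scaling the libraries; bars are means of 3 libraries per group with error bars of 1 SE. The hippocampus bar is the higher of the pair with library totals (29537 against 27493) and the lower with TMM-scaled totals (24032 against 33512).

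None of the 746 miRNAs passed the test of the difference in added CPM (0% called by limma, and 0 with weights from edgeR dispersions; 19, or 2.55%, had an unadjusted p under 0.05 in the first, 15 of them positive). Each guide alone had a positive difference that did not pass, 1380 CPM (SE 1253) for miR-7a-5p and 664 CPM (SE 553) for miR-7b-5p, with a limma adjusted p of 0.976 for both. These SEs are limma's, which draw on the spread of other miRNAs. From the spread of each strand alone, as used above for both guides together, they were 761 CPM for miR-7a-5p and 366 CPM for miR-7b-5p. Of the 6 strands that rose in CyrKO cerebellum, 4 had a negative difference in log2 change and a positive difference in added CPM, while 51 of all 746 tested miRNAs had this pair of signs. They were the miR-7 guides, miR-671-5p and miR-409-3p. With TMM-scaled totals 2 of the 6 did, miR-671-5p and miR-409-3p, against 30 of all 746. The 6 were picked by their rise in cerebellum and all had a higher mean CPM in WT hippocampus than in WT cerebellum. A rise from a higher base can add more reads at a smaller fold. All tested miRNAs are therefore not a like background for these counts.

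miR-671-5p, through which Cdr1as is sliced, rose in both tissues. The estimates were of more reads and a smaller fold in hippocampus, but neither tissue difference passed. It was at 569, 568 and 568 CPM in CyrKO hippocampus, against 370, 417 and 389 CPM in WT hippocampus. In cerebellum it was at 242, 217 and 217 CPM in CyrKO, against 111, 129 and 127 CPM in WT. CyrKO libraries lay above WT libraries in both tissues without overlap, as did 35 miRNAs (4.69% of those tested) in hippocampus and 25 (3.35%) in cerebellum. The log2 change was 0.51 (SE 0.09, edgeR adjusted p = 0.00769) in hippocampus and 0.89 (SE 0.09, adjusted p = 1.07e-05) in cerebellum. Their difference of −0.37 (SE 0.13, edgeR adjusted p = 0.765) did not pass. The added reads were 176 CPM in hippocampus and 103 CPM in cerebellum, and their difference of 73.2 CPM (SE 16.1, limma adjusted p = 0.581) did not pass either. The call in hippocampus was lost without CyrKO hippocampus library 3 (edgeR adjusted p = 0.0525). With TMM-scaled totals the difference in added reads was 12.97 scaled CPM (SE 18.4, from the spread of this strand alone).

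Of the strands from the imprinted miR-379/410 cluster on chromosome 12, miR-409-3p rose in both tissues. It was at 345, 314 and 302 CPM in CyrKO hippocampus, against 188, 168 and 162 CPM in WT hippocampus. The cerebellum libraries held 75.1, 80.8 and 77.7 CPM in CyrKO, against 24.0, 29.2 and 29.3 CPM in WT. Groups did not overlap in either tissue, as for 4.69% of all tested miRNAs in hippocampus and 3.35% in cerebellum with CyrKO higher. WT cerebellum had the least, with 270 to 357 reads per library. The log2 change was 0.87 (SE 0.10) in hippocampus and 1.51 (SE 0.10) in cerebellum, and the difference of −0.64 (SE 0.14, edgeR adjusted p = 0.0785) missed the threshold. It passed without CyrKO hippocampus library 1, WT hippocampus library 3, CyrKO cerebellum library 1 or WT cerebellum library 2 (edgeR adjusted p = 0.0441, 0.0472, 0.0384 and 0.0290). In added reads the order of the tissues was the reverse, with 148 CPM gained in hippocampus, against 50.4 CPM in cerebellum, and a difference of 97.5 CPM (SE 14.5, limma adjusted p = 0.0771). That difference stayed positive under the 4 scalings, between 56.8 and 159 scaled CPM. The added-read difference passed where miRNAs had to average 10 CPM (adjusted p = 0.0269) and without CyrKO hippocampus library 1 or 3 (adjusted p = 0.0218 and 0.0366).

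miR-411-3p rose in cerebellum and was the third miRNA whose response differed between tissues. It was at 761, 731 and 694 CPM in CyrKO hippocampus, against 571, 553 and 701 CPM in WT hippocampus. Cerebellum libraries were at 410.8, 366 and 355 CPM in CyrKO, against 174, 200 and 192 CPM in WT. CyrKO and WT overlapped in hippocampus, where 1 WT library exceeded 1 CyrKO library, and were well apart in cerebellum. In cerebellum CyrKO was higher without overlap for 3.35% of all tested miRNAs. The log2 change was 0.23 (SE 0.11, edgeR adjusted p = 0.979) in hippocampus and 1.01 (SE 0.11, adjusted p = 1.97e-05) in cerebellum, a difference of −0.77 (SE 0.16, adjusted p = 0.0387). The call was lost in 5 of 13 alternatives and in 1 of 12 fits without 1 library. The 13 include a fit of its reads summed with those of miR-379-3p, which passed and does not test miR-411-3p alone. With the replicate number as a block in cerebellum, where same-numbered CyrKO and WT libraries correlated at r = 0.13 to 0.54, the edgeR adjusted p was 0.0553. It was 0.0959 with the number as a block in all groups and 0.0721 within genotype. The call was also lost without CyrKO hippocampus library 2 (adjusted p = 0.111). It was lost too with the level of the choroid plexus list as a covariate (adjusted p = 0.117). The same held with that of the erythroid list (adjusted p = 0.0667), a covariate chosen after seeing the data. The added reads were 120 CPM in hippocampus, against 189 CPM in cerebellum, and differed by −68.7 CPM (SE 51.7, limma adjusted p = 0.976). That value was −22.4 CPM without WT hippocampus library 3, −141.9 scaled CPM with TMM-scaled totals and −234 without the 10 most abundant miRNAs.

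The near-identical miR-379-3p rose in cerebellum, and its difference between tissues did not pass. It was at 397, 391 and 360 CPM in CyrKO hippocampus, against 313, 287 and 377 CPM in WT hippocampus. Cerebellum libraries held 209, 179 and 186 CPM in CyrKO, against 98.1, 107 and 108 CPM in WT. The hippocampus groups overlapped through WT library 3, which was also the highest WT library for miR-411-3p. The log2 change was 0.21 (SE 0.11) in hippocampus and 0.88 (SE 0.11) in cerebellum, a difference of −0.67 (SE 0.16, edgeR adjusted p = 0.083), which passed without WT hippocampus library 2 (adjusted p = 0.0101). It also passed in 3 alternatives, DESeq2 (adjusted p = 0.0105), no low-count filter (0.0361) and the miR-7 guides left out of the totals (0.0432). With the reads of both strands summed into 1 feature, and those of the miR-7 guides into another, an alternative also added after seeing the data, the difference of the summed miR-411-3p and miR-379-3p was −0.76 (edgeR adjusted p = 0.0343).

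**Figure D4:**
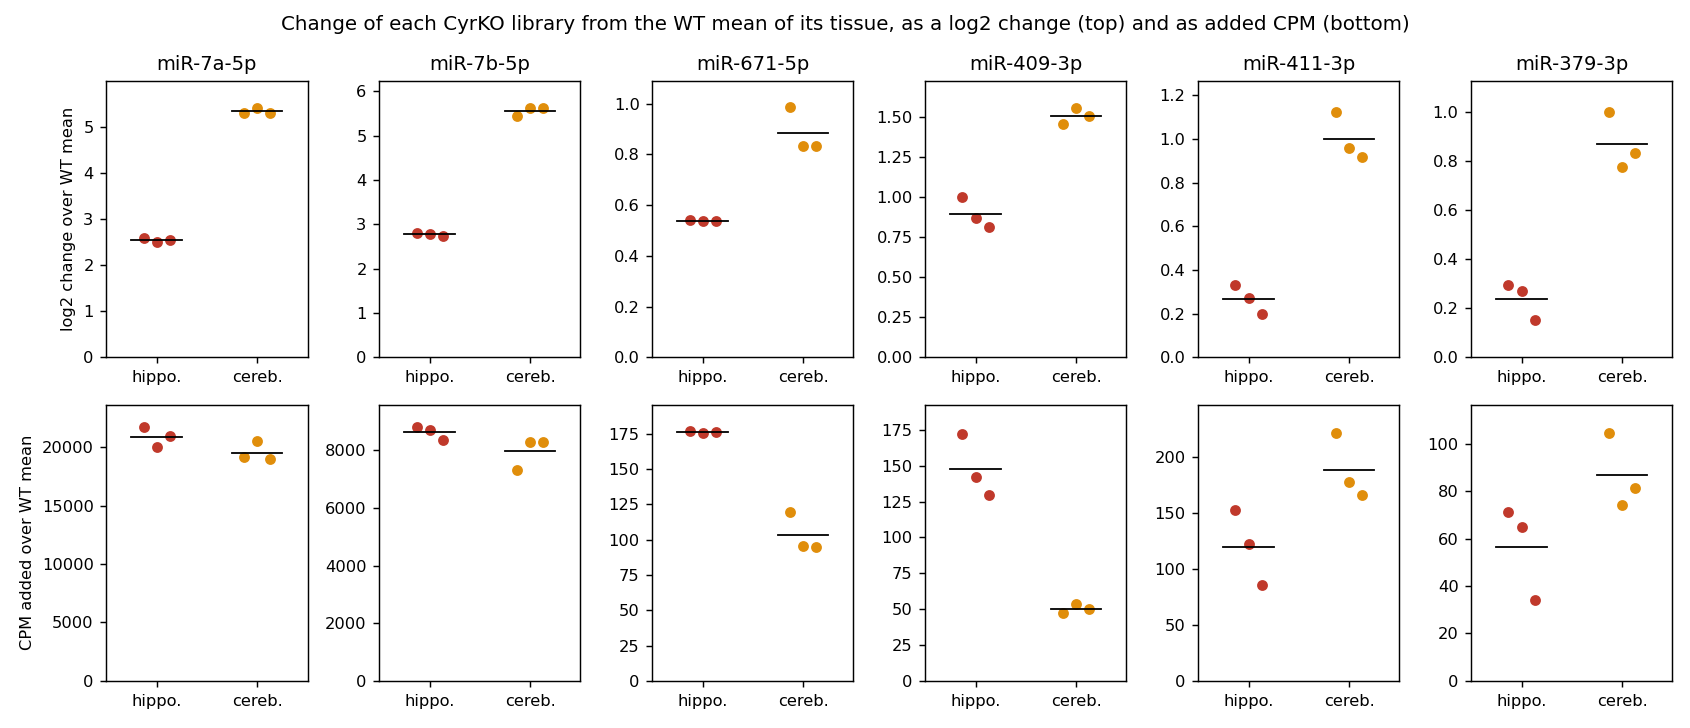
Change of each CyrKO library from the WT mean of its tissue for 6 strands, as a log2 change in the upper row and as added CPM in the lower row, with hippocampus left of cerebellum in each panel and bars at the mean of 3 libraries. In the upper row hippocampus is the lower in every panel, while in the lower row it is the higher for miR-671-5p (176 against 103 CPM) and miR-409-3p (148 against 50.4 CPM) and the lower for miR-411-3p (120 against 189 CPM) and miR-379-3p. The strands were picked by their rise in cerebellum, which by itself favours the order in the upper row. The added CPM use library totals, and none of their tissue differences passed limma's test.

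None of the opposite strands of these hairpins passed the test of the tissue difference. miR-7a-1-3p, the passenger strand of Mir7-1, was at 224, 231 and 240 CPM in CyrKO hippocampus, against 263, 259 and 317 CPM in WT hippocampus. In cerebellum it was at 420, 324 and 347 CPM in CyrKO, against 351, 369 and 376 CPM in WT. The CyrKO libraries lay below WT in hippocampus, as did those of 4.16% of all tested miRNAs, and mixed with WT in cerebellum, and the difference in log2 change was −0.29 (SE 0.16, edgeR adjusted p = 0.942). The passenger strand of Mir7-2, miR-7a-2-3p, averaged 144 ± 16.1 CPM in CyrKO hippocampus and 151 ± 7.47 CPM in WT hippocampus, and 4.61 ± 0.880 CPM in CyrKO cerebellum and 4.52 ± 0.401 CPM in WT cerebellum (SD, n = 3 each). Its difference was −0.13 (SE 0.20), that of miR-7b-3p was 0.01 (SE 0.30) and that of miR-671-3p was 0.18 (SE 0.16). For the 5p strands of the imprinted hairpins the differences were −0.14 (SE 0.18) for miR-379-5p, −0.05 (SE 0.13) for miR-409-5p and 0.05 (SE 0.15) for miR-411-5p. Of these 7 strands 0 had an unadjusted p under 0.05 by edgeR, against 4.69% of all 746 tested miRNAs. For 7 strands a count of 0 is near that share.

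The ratio of both strands of a hairpin is taken within a library and needs no library total. For miR-7a-5p the passenger strand used comes from Mir7-1 alone, while the guide also comes from Mir7-2. For miR-7a-5p over miR-7a-1-3p the log2 ratio was 6.86, 6.72 and 6.72 in CyrKO hippocampus, against 4.15, 3.85 and 3.84 in WT hippocampus. In cerebellum it was 5.55, 6.02 and 5.81 in CyrKO, against 0.32, 0.56 and 0.43 in WT. The change was 2.82 (SE 0.11) in hippocampus and 5.36 (SE 0.15) in cerebellum, a difference of −2.53 (SE 0.19). The difference was −0.55 (SE 0.14) for miR-671-5p over miR-671-3p, with changes of 0.47 in hippocampus and 1.02 in cerebellum. For miR-409-3p over miR-409-5p the change was 0.90 in hippocampus and 1.49 in cerebellum (difference −0.58, SE 0.21). For miR-411-3p over miR-411-5p it was 0.25 in hippocampus and 1.05 in cerebellum (difference −0.80, SE 0.13), and for miR-379-3p over miR-379-5p it was 0.36 in hippocampus and 0.88 in cerebellum (difference −0.52, SE 0.17). In these 5 ratios the CyrKO libraries of the tissues did not overlap in their change from WT, and the exact two-sided permutation p was 0.1 for each, the smallest that 3 against 3 libraries can give (adjusted p = 0.12 over 6 ratios). Each of the 5 holds a strand picked by its rise in cerebellum, which by itself favours a larger change there. Ratios of other hairpins were not computed, so no background share of such separation can be given. The sixth ratio, miR-7a-5p over miR-7b-5p, fell by 0.22 (SE 0.04) in hippocampus and by 0.22 (SE 0.07) in cerebellum, with a difference of 0.00 (SE 0.08, exact permutation p = 1).

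**Figure D5:**
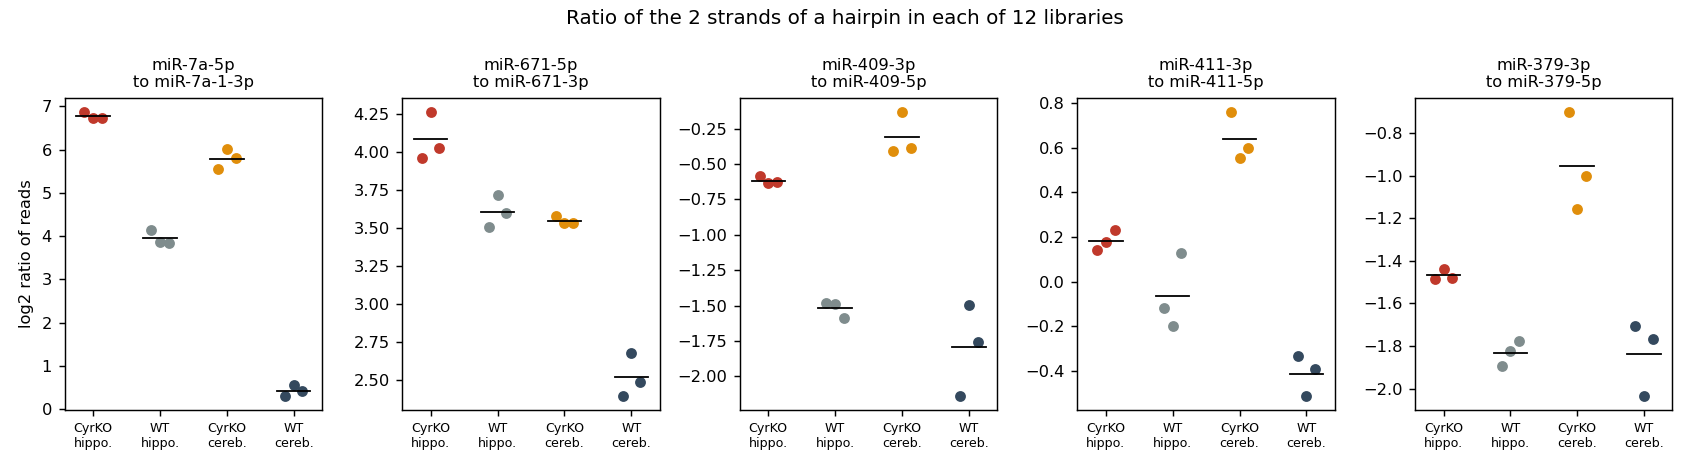
Log2 ratio of the reads of both strands of a hairpin in each library for 5 hairpins, by group; points are libraries and bars are means of 3. The gap between CyrKO and WT is smaller in hippocampus than in cerebellum in each panel, 2.82 against 5.36 for miR-7a-5p over miR-7a-1-3p and 0.25 against 1.05 for miR-411-3p over miR-411-5p. The first strand of each ratio was picked by its rise in cerebellum, which by itself favours this order.

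Outside these hairpins the responses of the tissues did not differ past the threshold. Among the miRNAs with the next lowest p, miR-666-3p of the miR-379/410 cluster was at 673, 605 and 567 CPM in CyrKO hippocampus, against 604, 567 and 450 CPM in WT hippocampus. It was at 155, 156 and 154 CPM in CyrKO cerebellum, against 193, 205 and 197 CPM in WT cerebellum. The groups overlapped in hippocampus and not in cerebellum, where CyrKO was lower, as it was without overlap for 4.83% of all tested miRNAs, and the difference in log2 change was 0.51 (SE 0.15, edgeR adjusted p = 0.347). miR-298-5p, miR-31-5p, miR-143-3p and miR-330-5p had differences of 0.40, 0.44, 0.58 and 0.35, with an adjusted p from 0.765 to 0.942. miR-382-3p, at 1.59 (SE 0.52), and miR-7066-3p, at −1.24 (SE 0.48), rested on 3 to 41 reads per library. In the miR-379/410 cluster, the 58 tested strands of other hairpins than miR-379, miR-409 and miR-411 had a median difference of −0.05 and 0 passed, against 0.402% of all tested miRNAs. The 25 tested members of the neighbouring miR-127 and miR-433 group had a median of 0.05 and 0 passed. Of 7 tested miRNAs that are reported elsewhere to undergo target-directed degradation, 0 passed, and the median was 0.02, with miR-503-5p at 0.18 (SE 0.18) and miR-335-3p at −0.14 (SE 0.16). The 11 neuronal miRNAs had a median of 0.01, with 0 called.

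In the lists of markers of other cells 0 members passed the test of the tissue difference, and in some lists the estimates had the same sign. All 8 choroid plexus miRNAs had a positive difference (47.7% of all tested miRNAs had a negative one), with a median of 0.58 a range from 0.18 to 0.81 and SEs from 0.43 to 0.89, against a median of 0.01 for all tested miRNAs. Their summed level was 5937, 17151 and 12712 CPM in CyrKO hippocampus, against 7424, 16169 and 3700 CPM in WT hippocampus. In cerebellum it was 8641 to 10661 CPM in CyrKO and 8719 to 10270 CPM in WT. The hippocampus libraries of either genotype spread widely and overlapped. The 6 vessel miRNAs were also all positive, with a median of 0.26, led by miR-143-5p at 0.64 (SE 0.26) and miR-143-3p at 0.58 (SE 0.20), miRNAs of vascular smooth muscle. Their summed level was 11308 to 14796 CPM in CyrKO hippocampus, against 11509 to 11965 CPM in WT hippocampus, and 7867 to 8002 CPM in CyrKO cerebellum, against 8142 to 8889 CPM in WT cerebellum. The 3 erythroid miRNAs had a median of −0.28, with summed levels of 2864 to 3574 CPM in CyrKO hippocampus, 2583 to 3058 CPM in WT hippocampus, 16566 to 27991 CPM in CyrKO cerebellum and 6326 to 32949 CPM in WT cerebellum. No member of these 3 lists was at 0 in any library. The part of these cells in the miR-411-3p result was not tested beyond the covariates given with it. With the same covariates the miR-7a-5p difference was −2.70 (choroid plexus) and −2.84 (erythroid). The 7 tested let-7 guides, abundant miRNAs of differentiated cells, had a median of −0.20 with 6 of 7 negative, and the 7 immune miRNAs a median of −0.09.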

How the data were processed

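Small RNAs of 18 to 32 nt were sequenced from 5 ug of total RNA per library, per the labels' protocols. The authors deposited whole-number counts of reads per miRNA and library, used here, and the same counts divided by size factors, a normalised signal per the file headers, used only to check the counts. Tools listed by the submitters' processing notes are DESeq2 1.10 and cutadapt (no version); how reads were assigned to miRNAs is not given in the sources used here.

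Counts of the 12 libraries were joined on the miRNA name and fitted together, with 1 mean per group, in R 4.3.3 with edgeR 4.0.16 (filterByExpr at 10 reads and 15 in total, TMM, robust quasi-likelihood F-test, Benjamini-Hochberg over 746 miRNAs, threshold 0.05). SE is the log2 change over the square root of F. Differences in added CPM, computed from library totals, were tested with limma 3.58.1 (trend, robust). Single values and log2 strand ratios (pseudocount 0.5 read) used exact permutation tests of CyrKO libraries minus the WT mean of their tissue, with that mean taken as fixed. Same-numbered CyrKO and WT libraries deviated together in cerebellum (r over 0.1 in 3 of 3 pairs, 0.13 to 0.54) and not in hippocampus (1 of 3), so a block by number in cerebellum was added after seeing the data. Pairing by number was not clear there. CyrKO library 3 and WT library 2 correlated at r = 0.37, and CyrKO library 2 and WT library 3 at 0.16. The remaining different-numbered pairs in cerebellum had a negative r. DESeq2 1.42.0 and limma-voom were alternatives. Both procedures were run on simulated data, with changes placed only in miRNAs outside the most abundant ones. Recovery of the simulated size was required of the log2 test only, and few false calls of both tests.

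Named were all strands of the miR-7, miR-671, miR-379, miR-409 and miR-411 hairpins, miRNAs past the threshold or with the 10 lowest p among the rest on either scale, the 5 largest differences in added CPM, and up to 3 members per list. miR-7080-5p and miR-374c-5p were named after their values were seen. The members and lists were chosen with earlier results of these data known. Sequences come from RefSeq and GENCODE, and errors cover only the spread between libraries.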

Additional observations from a re-analysis of the deposited data

Results flagged for a closer look

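The change with Cyrano loss differed between tissues by the test of the difference itself for 3 miRNAs, each given as hippocampus minus cerebellum on the log2 scale by edgeR. The difference was −2.82 for miR-7a-5p, with changes of 2.52 in hippocampus and 5.34 in cerebellum. It was −2.81 for miR-7b-5p, with changes of 2.74 in hippocampus and 5.56 in cerebellum. It was −0.77 for miR-411-3p, with changes of 0.23 in hippocampus and 1.01 in cerebellum. This call was lost in 5 of 13 alternatives (edgeR adjusted p up to 0.117) and in 1 of 12 fits without 1 library (0.111). The 13 include a fit of its reads summed with those of miR-379-3p, which passed. The calls of the miR-7 guides held in each alternative and each fit without 1 library run for them.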

How the results depend on the processing

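The number of miRNAs whose log2 change differed between tissues was 3, and 2 to 5 over 13 alternatives: 5 with DESeq2, which also called miR-409-3p and miR-379-3p (adjusted p = 0.0135 and 0.0105), and 2 to 4 with 1 library left out. Across the 4 groups same-numbered libraries showed no common pairing (r −0.67 to 0.71, over 0.1 in 7 of 18 pairs). Such correlations cannot show whether same-numbered hippocampus and cerebellum libraries came from the same mouse. The main fit treats all libraries as independent. In cerebellum r was 0.13 to 0.54 for same-numbered CyrKO and WT libraries, but some different-numbered pairs lay in the same range. With the number as a replicate block in all groups, within genotype or in cerebellum only, the count was 2 each time, without miR-411-3p. The calls within hippocampus were rerun only with the block in all groups. Those within cerebellum were rerun with that block and with the block in cerebellum only. No other call was lost in the fits that were run. The log2 differences of the miR-7 guides kept their direction and call in every alternative run for them. In added CPM 0 miRNAs passed, 1 with a mean of at least 10 CPM, and 0 to 1 with 1 library left out. The difference for both miR-7 guides together was −9480 with TMM-scaled totals and −2863 without the 10 most abundant miRNAs, and 1522 to 2693 with 1 library left out; for miR-7a-5p it was −6804 and −2189 under these scalings, and for miR-7b-5p −2676 and −674. Signs also changed for values near 0: miR-379-5p was at 0.020 with the choroid plexus covariate, miR-411-5p at −0.016 at a mean of at least 10 CPM (log2) and −13.5 CPM without the 10 most abundant, miR-409-5p at 8.37 CPM without the miR-7 guides, and miR-7b-3p at −0.0014, −0.039, −0.069, −0.042, −0.062 and −0.060 (log2) without the miR-7 guides, at 10 CPM, with voom and with the 3 blocks. With 1 library left out the log2 differences ran from −0.33 to 0.0045 for miR-7a-2-3p, −0.19 to 0.035 for miR-409-5p, −0.088 to 0.097 for miR-411-5p and −0.43 to 0.20 for miR-7b-3p, and the ratio of miR-7a-5p to miR-7b-5p from −0.047 to 0.050. In added CPM they ran from −14.8 to 1.17, −17.1 to 11.4, −4.60 to 44.8 and −4.06 to 3.34 for these 4, −4348 to −1268 for let-7f-5p, −4529 to −829 for let-7b-5p, −6045 to 291 for miR-26a-5p, −11225 to 294 for miR-451a and −1206 to 18760 for miR-124-3p. The cause of these changes was not tested. With 3 libraries per group no exact test could go below p = 0.1.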

Other observations

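On the scale of added CPM the 5 largest differences between tissues belonged to abundant miRNAs, and none passed limma's test (adjusted p of 0.976 for each). They were 8565 CPM for miR-124-3p, the most abundant neuronal miRNA, −4690 CPM for the red-cell miRNA miR-451a, −3362 CPM for miR-26a-5p, −3126 CPM for let-7f-5p and −3019 CPM for let-7b-5p. The 10 with the lowest p on this scale included miR-330-5p at 155 CPM, let-7i-3p at 216 CPM, miR-34a-5p at 554 CPM and miR-504-5p at −4.71 CPM. miR-34a-5p was at 711, 936 and 635 CPM in CyrKO hippocampus, against 810, 874 and 594 CPM in WT hippocampus, and at 2022, 2118 and 2139 CPM in CyrKO cerebellum, against 2831, 2514 and 2593 CPM in WT cerebellum. Its groups overlapped in hippocampus, and in cerebellum CyrKO libraries lay below WT libraries, as did those of 36 of all 746 tested miRNAs (4.83%).

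The activity-regulated pair miR-132-3p and miR-212-3p, which come from 1 gene, had differences in log2 change of −0.26 (SE 0.13) and −0.34 (SE 0.14), each with an edgeR adjusted p of 0.942.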
